A study of Mus musculus with 6 samples.

Results

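The genes described here belong to the TGF-beta and BMP superfamily pathway in the epicardium and subepicardium of the mouse heart at the embryonic stage E16.5. They were taken by symbol as the BMP, GDF, TGF-beta and activin ligand genes, their receptors, the Smads, the Id genes, the latent TGF-beta binding proteins (Ltbp) and the secreted antagonists and follistatin-like proteins. The symbol patterns match 64 protein-coding genes of GENCODE M21. Of these, 51 were analysed here, among 14549 genes in all; the other 13, among them Nog and Fst, were not analysed here. Polyadenylated RNA was sequenced from 3 dKO libraries (genotype Meis1-Meis2 KO, from Meis1 fl/fl;Meis2 fl/fl;WT1-Cre embryos) and 3 control libraries (genotype Wild-type). Meis1 and Meis2 encode transcription factors with a TALE homeodomain. Deletion rests on WT1-Cre, so only cells that have expressed that Cre can have lost the genes, and other cells of the dissected layer keep them. The sources used here do not say whether control embryos carried the Cre or floxed alleles. Each library pooled the layers of 2 hearts of 1 genotype, so differences between single hearts are not visible. Libraries keep the numbers of their titles, which are 1, 2 and 3 for dKO and 1, 2 and 4 for control.

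Ligands of this superfamily are secreted dimers that bring together a type I and a type II receptor kinase on the receiving cell. The type I receptor then phosphorylates a receptor-activated Smad, which joins Smad4 and enters the nucleus. TGF-beta and activin ligands act mainly through Smad2 and Smad3, and BMP ligands through Smad1, Smad5 and Smad9. Antagonists such as chordin bind BMPs outside the cell, inhibitory Smads act inside it, and Id genes are direct targets of BMP signalling. In the developing heart the pathway is known for its part in valve formation, in growth of the myocardium and in the epithelial-to-mesenchymal transition of epicardial cells.

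Values are normalised read counts, meaning reads per 1e6 after scaling each library and adding 0.5 reads, so a library with no read of a gene still shows a small value. Read totals recovered from the table ran from 13146322 to 20635676 in the dKO libraries and from 14977143 to 15562385 in the control libraries. A log2 change is dKO minus control, taken after adding 1 to each value, which makes the changes of low genes look smaller than they are. Meis2 was lower in dKO libraries, at 44.5, 34.8 and 44.5 against 86.1, 85.6 and 63.3 in controls 1, 2 and 4 (log2 change -0.90, limma adjusted p = 0.00352). Meis1 did not pass, at 58.5, 74.1 and 65.0 in dKO libraries against 106, 63.6 and 63.4 in control libraries (log2 change -0.20, limma adjusted p = 0.521). These levels cover whole genes and do not measure the deleted parts.

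Markers of the labelled tissue were present in every library and lower in the dKO libraries. Upk3b, a mesothelial uroplakin gene, had 33.3, 57.4 and 59.5 in dKO libraries against 791, 565 and 489 in control libraries. Of 18 epicardial markers 17 fell, and their summed level was 573 to 725 in dKO libraries against 3018 to 4656 in control libraries. Cardiomyocyte markers went the other way, with 18 of 20 higher and a summed level of 36623 to 39551 in dKO libraries against 7049 to 15399.9 in control libraries. Fibroblast markers fell for 10 of 14 and rose for 1, with sums of 12130.4 to 15762 in dKO libraries and 28880.4 to 32558 in control libraries. Mural markers rose for 8 of 12 (2311 to 2476 in dKO, 778 to 1222 in control), and lymphatic markers fell for 6 of 8 (167 to 222 in dKO, 629 to 884 in control). Macrophage and mast cell markers fell for 6 of 12 (225 to 288 in dKO, 594 to 810.2 in control). Pan-endothelial markers overlapped, with 1 of 13 lower and sums of 1553 to 1744 in dKO libraries and 1284 to 1982 in control libraries. Erythroid markers (0 of 8) and neural and Schwann markers (0 of 3) did not pass. None of the listed markers had 0 reads in every dKO library. In such bulk tissue, fewer cells of a type and less RNA per cell cannot be told apart, and the part of these marker differences in the results on single genes was not tested beyond the cardiomyocyte score given next.

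**Figure D1:**
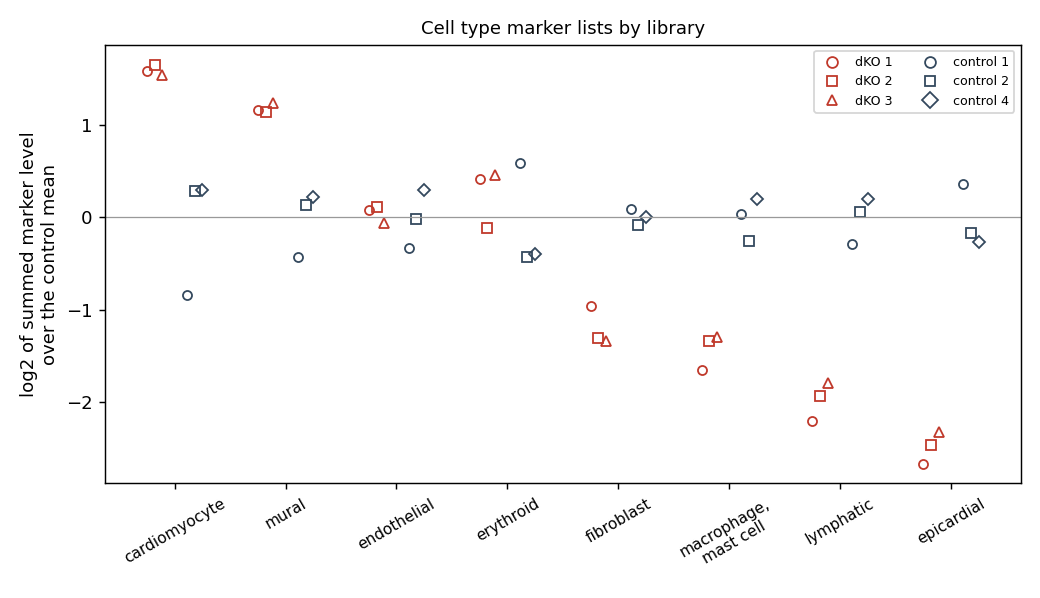
Summed level of each cell type marker list per library, as log2 of its ratio to the control mean (y axis), for 3 dKO libraries (red, left) and 3 control libraries (dark blue, right). The cardiomyocyte and mural sums of the dKO libraries lie above all control sums, the fibroblast, macrophage and mast cell, lymphatic and epicardial sums lie below them, and the endothelial and erythroid sums overlap.

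Among the 51 genes, 15 fell and 6 rose in the dKO libraries (limma, adjusted p under 0.05 over all 14549 genes). That is 29.4% lower and 11.8% higher, against 12.2% lower and 9.81% higher of all genes tested, and 41.2% changed in either direction against 22.0% of all genes. The median log2 change was -0.23 over the 51 genes and 0.00164 over all genes. The libraries of the groups did not overlap for 19 genes that were lower in dKO (37.3%, against 21.1% of all genes) and 8 that were higher (15.7%, against 19.3%). By role, 6 ligands fell and 2 rose of 16, 4 receptors fell and 2 rose of 12, 2 antagonists fell and 1 follistatin-like gene rose of 6, 2 Smad or Id genes fell and 1 rose of 12, and 1 of 5 among the Ltbp genes and Bmp1 fell. With the mean log2 level of the cardiomyocyte markers as a covariate, 2 members fell (Chrdl1 and Bmp6) and 1 rose (Gdf10). That score was 9.34 to 9.63 in dKO libraries and 7.04 to 8.18 in control libraries, so the groups did not overlap in it and score and genotype cannot be told apart. Among the controls it was 7.04 in control 1 but 8.14 and 8.18 in controls 2 and 4. Its spread within the groups thus came mostly from control 1, and adjusted values cannot be told apart from an adjustment for that library. The median SE of the members was 0.44 with it and 0.21 without it. Of the 21 changed members, 14 passed in all 6 fits that each left out 1 library. Among the 21, Chrdl1 and Gdf2 reached a value of 1 only in control libraries, and Acvr1c only in dKO libraries. Each met the filter of 1 in at least 3 libraries only through the group where it was high, so its entry is not independent of its call.

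**Figure D2:**
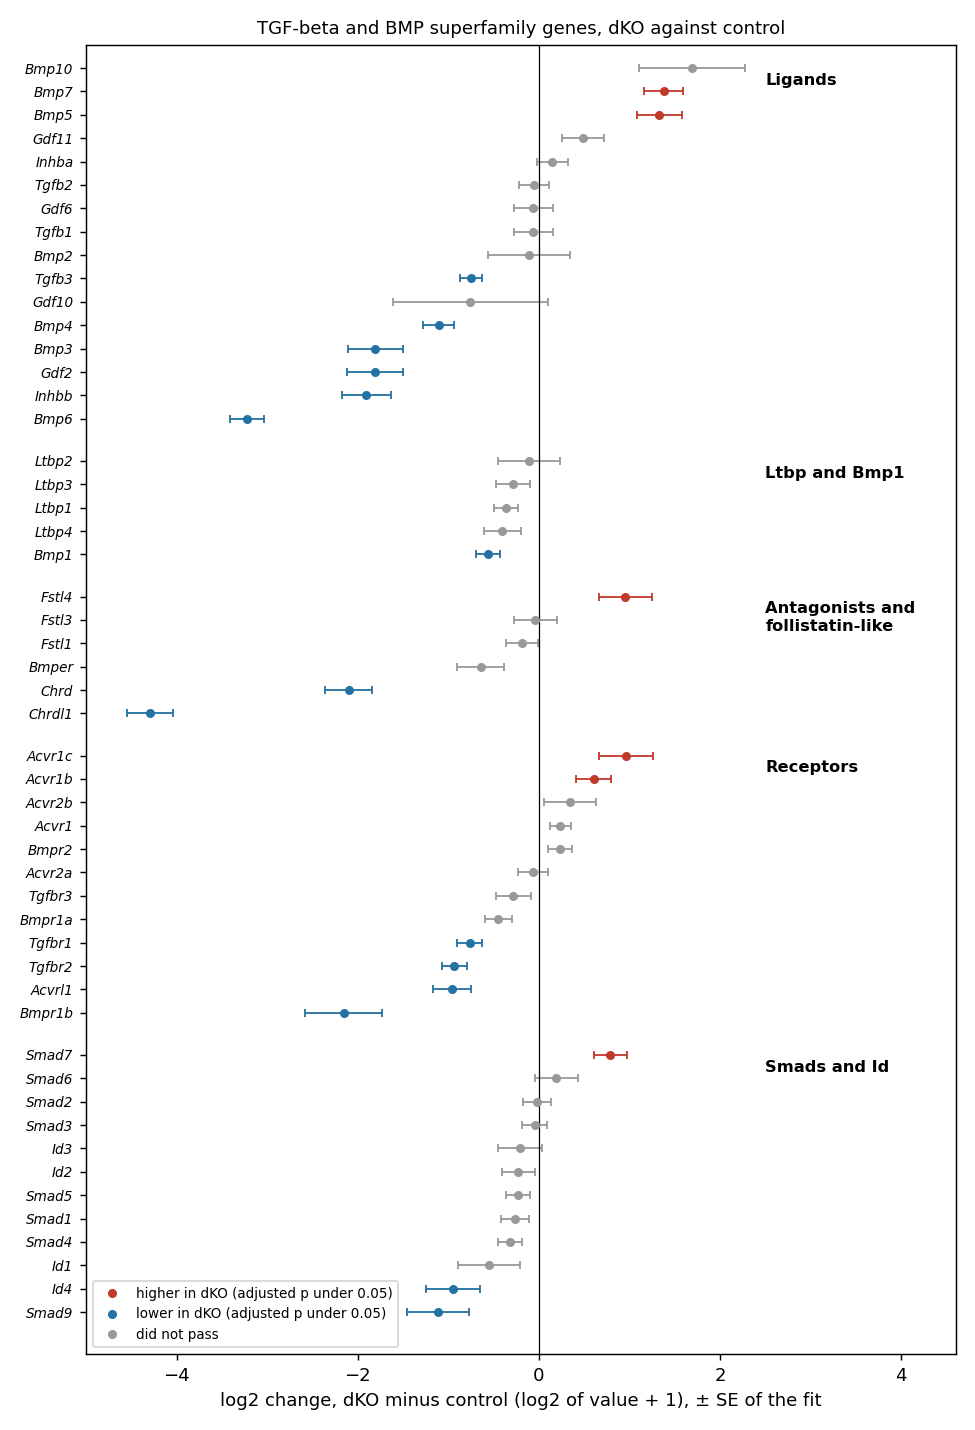
Log2 change of each of the 51 genes, dKO minus control (x axis, log2 of the value plus 1), with the SE of the fit over 3 libraries a group, ordered by size within each role. The 6 genes in red rose and the 15 in blue fell at an adjusted p under 0.05; grey genes did not pass.

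The BMP ligands changed in both directions, and the closely related Bmp5, Bmp6 and Bmp7 did not move together. Bmp6 fell, while Bmp5 and Bmp7 rose. Bmp6 (ENSMUSG00000039004, GRCm38 chromosome 13, 38345107 to 38500302), which encodes a BMP that is also known for iron regulation in the liver, had 8.80, 7.73 and 12.2 in dKO 1, 2 and 3 against 82.7, 111 and 96.5 in controls 1, 2 and 4. Each dKO library was far below each control library. The means were 9.56 ± 2.31 in dKO and 96.7 ± 14.1 in control libraries (SD, n = 3 each), 0.0989 of the control mean, with a log2 change of -3.22 (SE 0.19, limma adjusted p = 5.69e-06). After adjustment for the cardiomyocyte score the log2 change of Bmp6 was -3.65 (limma adjusted p = 0.00116).

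Bmp7 (ENSMUSG00000008999, chromosome 2, 172868012 to 172940321), a BMP with known roles in kidney, eye and heart development, had 62.1, 71.9 and 62.0 in dKO libraries against 16.52, 28.7 and 30.8 in control libraries. All dKO libraries were above all controls, and control 1, which also had the lowest cardiomyocyte marker sum, was the lowest. Its mean was 2.58 times the control mean (log2 change 1.38, SE 0.22, limma adjusted p = 0.00167). Bmp5 (ENSMUSG00000032179, chromosome 9, 75775364 to 75900310), known in the mouse from the short ear mutant, had 14.6, 22.3 and 15.3 in dKO libraries against 4.72, 8.01 and 6.25 in control libraries. The groups did not overlap, and the log2 change was 1.33 (SE 0.25, limma adjusted p = 0.00443). In GENCODE M21, 46.7% of the exonic bases of Bmp5 lie under the antisense gene Gm26903, and since the counting is not stated to use strand, reads there could belong to either gene. Neither Bmp5 (limma adjusted p = 0.658) nor Bmp7 (limma adjusted p = 0.815) passed after adjustment for the cardiomyocyte score.

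Bmp4 (ENSMUSG00000021835, chromosome 14, 46383520 to 46390669), a BMP of mesoderm and outflow tract development, had 13.8, 18.8 and 18.7 in dKO libraries against 36.2, 37.2 and 39.5 in control libraries. Its controls lay within a narrow band, well above the dKO libraries, and the log2 change was -1.10 (SE 0.17, limma adjusted p = 0.00147). Bmp2, its nearest relative, did not pass (log2 change -0.11, limma adjusted p = 0.894), and its libraries were split. It had 20.5 in dKO 1 but 4.70 and 4.65 in dKO 2 and 3, against 8.49, 9.29 and 7.84 in control libraries, so dKO 1 was above and the other dKO libraries below every control. Without dKO 1 the log2 change of Bmp2 was -0.75, and it did not pass there either.

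The other BMP and GDF ligands that passed were low. Bmp3, which encodes a BMP that antagonises other BMPs in bone, had 1.59, 0.555 and 1.10 in dKO libraries against 6.70, 7.18 and 4.73 in control libraries (log2 change -1.81, SE 0.30, limma adjusted p = 0.0024). Gdf2 encodes BMP9, a circulating ligand made by the liver that acts on endothelial cells, and it rested on 3, 3 and 0 reads in dKO libraries against 58, 57 and 33 reads in control libraries. Over all libraries that is 6 against 148 reads, a ratio of 0.0385 between the groups' read rates with an exact 95% counting interval of 0.0139 to 0.0858 (log2 change -1.81, SE 0.31, limma adjusted p = 0.00272). The interval covers counting error only. The groups did not overlap for either gene.

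Bmp10, a ligand of cardiomyocytes that shares receptors with BMP9, had 3.64, 0.777 and 9.72 in dKO libraries against 1.20, 0.160 and 0.0317 in control libraries. The dKO libraries spread more than 10-fold and dKO 2 lay below control 1, so the groups overlapped. The fit did not pass (log2 change 1.69, SE 0.59, limma adjusted p = 0.0653), but did so without dKO 2 (2.35, limma adjusted p = 0.0133) or without control 1 (2.03, limma adjusted p = 0.0396). Gdf10, also called BMP3B, was set by 1 library, with 22.2, 19.2 and 9.28 in dKO libraries against 168, 11.3 and 10.2 in control libraries. Control 1 was 15.7 times the mean of the other controls. Its log2 change was -0.76 (limma adjusted p = 0.575), but 0.53 without control 1 (limma adjusted p = 0.3), and 4.52 after adjustment for the cardiomyocyte score (limma adjusted p = 0.0241). Within the groups that score varied mostly through control 1, the same library that set Gdf10. Gdf11 did not pass although its groups did not overlap (log2 change 0.49, limma adjusted p = 0.167), and Gdf6 had a log2 change of -0.06.

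Of the TGF-beta ligands only Tgfb3 passed. Tgfb3, which acts in palate and lung development and in epithelial-to-mesenchymal transition, had 57.4, 68.6 and 64.9 in dKO libraries against 111, 99.8 and 111 in control libraries. The groups were well apart (log2 change -0.75, SE 0.12, limma adjusted p = 0.0021), while 12.4% of its exonic bases overlap other genes. Tgfb2, the isoform whose loss in mice gives outflow tract and valve defects, had 85.9, 96.3 and 132 in dKO libraries against 99.2, 108 and 115 in control libraries (log2 change -0.05, limma adjusted p = 0.846). Tgfb1 had 14.8, 15.9 and 16.49 in dKO libraries against 12.4, 16.9 and 21.1 in control libraries (log2 change -0.06, limma adjusted p = 0.866). Both overlapped between the groups. Among the activin subunits Inhbb fell, at 1.65, 0.999 and 1.34 in dKO libraries against 8.24, 8.90 and 6.13 in control libraries (log2 change -1.91, SE 0.27, limma adjusted p = 0.000958). Inhba had a log2 change of 0.15 and did not pass.

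Levels per kilobase of exon allow the ligands to be ranked against one another. Mean levels per kilobase of Bmp6 were 2.45 in dKO and 24.8 in control libraries, those of Bmp7 16.3 in dKO and 6.30 in control, those of Bmp4 7.61 in dKO and 16.7 in control, and those of Bmp5 4.33 in dKO and 1.57 in control. In each dKO library Bmp7 thus led these 4 BMP genes, followed by Bmp4, Bmp5 and Bmp6. Reads of the overlapping gene Gm26903 may be part of the Bmp5 level, so its place above Bmp6 is uncertain. In each control library the order was Bmp6, Bmp4, Bmp7 and Bmp5. In control 1, Gdf10 stood above them all at 32.3 per kilobase. Tgfb3 led the TGF-beta ligands in control libraries, at 33.0, 29.5 and 32.8 per kilobase against 17.1, 18.6 and 19.8 for Tgfb2. In the dKO libraries Tgfb3 (17.0, 20.3 and 19.2) and Tgfb2 (14.8, 16.6 and 22.9) were at like levels per kilobase, with Tgfb3 above in dKO 1 and 2 and below in dKO 3.

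**Figure D3:**
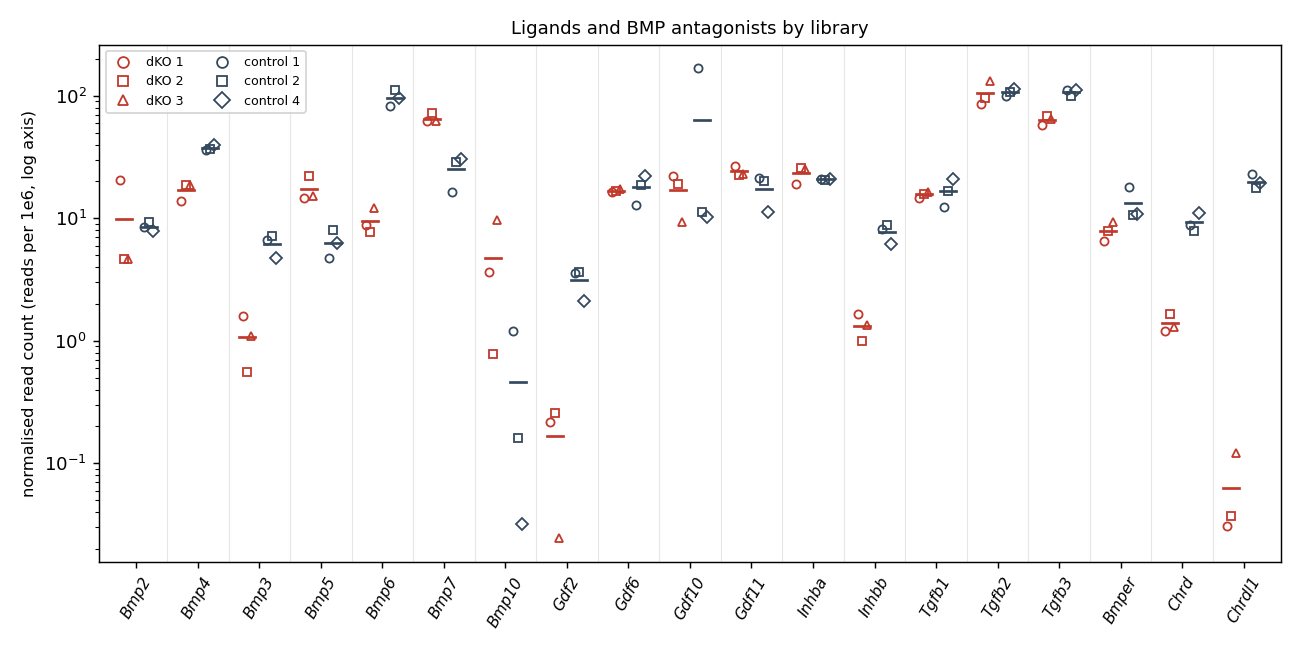
Normalised read count per library (log axis) of ligand and BMP antagonist genes, with 3 dKO libraries (red, left) and 3 control libraries (dark blue, right) and the group mean as a bar. Bmp6 lies at 7.73 to 12.2 in dKO and 82.7 to 111 in control libraries, Bmp7 at 62.0 to 71.9 in dKO and 16.52 to 30.8 in control, and the libraries of Tgfb1 and Tgfb2 overlap.

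Of the extracellular regulators Bmp1 fell and the Ltbp genes did not pass. Ltbp proteins hold latent TGF-beta in the matrix, and 4 Ltbp genes were measured. Ltbp1 came closest to the threshold, with 120, 101 and 130 in dKO libraries against 162, 147 and 141 in control libraries (log2 change -0.36, limma adjusted p = 0.0712). Its groups did not overlap. Ltbp3 had a log2 change of -0.29 (limma adjusted p = 0.313) and passed without dKO 1 (-0.51, limma adjusted p = 0.0382), and Ltbp4 of -0.40 (limma adjusted p = 0.189). Ltbp2 had a log2 change of -0.11. Bmp1 is not a BMP but a protease that trims procollagens and cleaves chordin. It fell, with 89.3, 86.2 and 71.5 in dKO libraries against 114, 117 and 136 in control libraries (log2 change -0.56, SE 0.13, limma adjusted p = 0.0131), and did not pass without dKO 3 (-0.47, limma adjusted p = 0.0664). The fibroblast marker sums above moved the same way, and their part in the result was not tested.

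The secreted BMP antagonists Chrdl1 and Chrd fell, and Chrdl1 was close to the limit of detection in the dKO libraries. Chrdl1 (ENSMUSG00000031283, chromosome X, 143285674 to 143394262) encodes chordin-like 1, which binds BMPs including BMP4. It had 0, 0 and 2 reads in dKO 1, 2 and 3 against 371, 275 and 305 reads in controls 1, 2 and 4. The control libraries lay between 17.6 and 22.9 in normalised read count. Over all libraries, 2 reads against 951 give a ratio of read rates of 0.00200, with an exact 95% counting interval of 0.000242 to 0.00724. The log2 change was -4.30 (SE 0.25, limma adjusted p = 5.69e-06), and -3.86 after adjustment for the cardiomyocyte score (limma adjusted p = 0.00916). Chrd (ENSMUSG00000006958, chromosome 16, 20733127 to 20742384), which encodes chordin, had 1.21, 1.66 and 1.29 in dKO libraries against 8.86, 7.88 and 11.1 in control libraries. Its groups did not overlap (log2 change -2.10, SE 0.26, limma adjusted p = 0.000437), and it did not pass after that adjustment (-2.16, limma adjusted p = 0.16).

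Bmper, a chordin-related BMP modulator of endothelial cells, had 6.50, 7.95 and 9.43 in dKO libraries against 18.1, 10.7 and 10.95 in control libraries (log2 change -0.64, limma adjusted p = 0.101). No dKO library reached a control library, and control 1 was the highest. Fstl1, a secreted glycoprotein of the epicardium and mesenchyme, had the highest level per kilobase of the 51 genes in every library, with normalised read counts of 1160, 1414 and 1529 in dKO libraries against 1623, 1366 and 1664 in control libraries. The groups overlapped (log2 change -0.19, limma adjusted p = 0.498). Fstl3, which binds activin, had a log2 change of -0.04 (limma adjusted p = 0.932), with 47.3% of its exonic bases under Prss57. Fstl4 rose at a low level, with 2.39, 3.44 and 3.63 in dKO libraries against 0.834, 1.05 and 1.56 in control libraries (log2 change 0.95, SE 0.29, limma adjusted p = 0.042). It did not pass with edgeR (1.48, edgeR adjusted p = 0.0668) or without control 1, control 2, dKO 2 or dKO 3 (limma adjusted p of 0.0951 to 0.144).

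Of the 12 receptor and co-receptor genes 4 fell and 2 rose. Tgfbr1 and Tgfbr2, the type I and type II kinases that bind TGF-beta as a complex, both fell. Tgfbr2 had 93.0, 86.2 and 116 in dKO libraries against 201, 188 and 173 in control libraries (log2 change -0.93, SE 0.14, limma adjusted p = 0.00114). Tgfbr1 had 83.2, 99.5 and 84.6 in dKO libraries against 166, 128 and 163 in control libraries (log2 change -0.76, SE 0.14, limma adjusted p = 0.00379). For both genes every dKO library was below every control, and the calls held in all fits that left out 1 library but not after adjustment for the cardiomyocyte score (Tgfbr2 -0.69, limma adjusted p = 0.376; Tgfbr1 -0.43, limma adjusted p = 0.633). Tgfbr3, the co-receptor betaglycan, did not pass (log2 change -0.28, limma adjusted p = 0.334).

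Of the BMP type I receptors, Acvrl1 and Bmpr1b fell. Acvrl1, an endothelial receptor for BMP9 and BMP10, had 27.7, 21.5 and 15.0 in dKO libraries against 36.6, 45.3 and 42.7 in control libraries (log2 change -0.96, SE 0.21, limma adjusted p = 0.00974). The groups did not overlap. Of the pan-endothelial markers 1 of 13 fell, with sums that overlapped between the groups, and of the lymphatic endothelial markers 6 of 8 fell (167 to 222 in dKO, 629 to 884 in control); their part in the result was not tested. Bmpr1b, known from limb and cartilage, rested on 0, 10 and 32 reads in dKO libraries against 172, 103 and 58 reads in control libraries (log2 change -2.15, SE 0.42, limma adjusted p = 0.00552). Control 1 was the highest of its group at 2.06 times the mean of the other controls. Bmpr1a, the main BMP type I receptor of the embryo, had 150, 191 and 196 in dKO libraries against 281, 226 and 224 in control libraries. Its groups did not overlap and the fit did not pass (log2 change -0.45, SE 0.15, limma adjusted p = 0.0525), although it passed after quantile normalization (limma adjusted p = 0.0463) and with DESeq2 (DESeq2 adjusted p = 0.0278).

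The activin and nodal type I receptors Acvr1b and Acvr1c rose, close to the threshold. Acvr1b had 31.8, 45.8 and 43.8 in dKO libraries against 26.0, 21.3 and 31.3 in control libraries (log2 change 0.61, SE 0.19, limma adjusted p = 0.0476). Acvr1c rested on 22, 24 and 36 reads in dKO libraries against 8, 4 and 4 reads in control libraries (log2 change 0.96, SE 0.30, limma adjusted p = 0.0415). Neither was stable: Acvr1b did not pass with edgeR (edgeR adjusted p = 0.0561) or in 4 of the fits that left out 1 library (limma adjusted p of 0.0719 to 0.163, without control 1, control 2, dKO 2 or dKO 3), and Acvr1c passed in none of those 6 fits (limma adjusted p of 0.0602 to 0.129). The remaining receptors did not pass. Acvr1 had 67.7, 63.4 and 71.6 in dKO libraries against 58.2, 58.7 and 54.3 in control libraries (log2 change 0.24, limma adjusted p = 0.185), without overlap. Log2 changes of the type II receptors Bmpr2, Acvr2a and Acvr2b were 0.24, -0.07 and 0.34. Per kilobase, mean levels of Bmpr1a were 28.2 in dKO and 38.4 in control libraries, those of Tgfbr1 13.6 in dKO and 23.3 in control, and those of Tgfbr2 12.004 in dKO and 22.9 in control, so Bmpr1a led these 3 receptors in both groups.

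**Figure D4:**
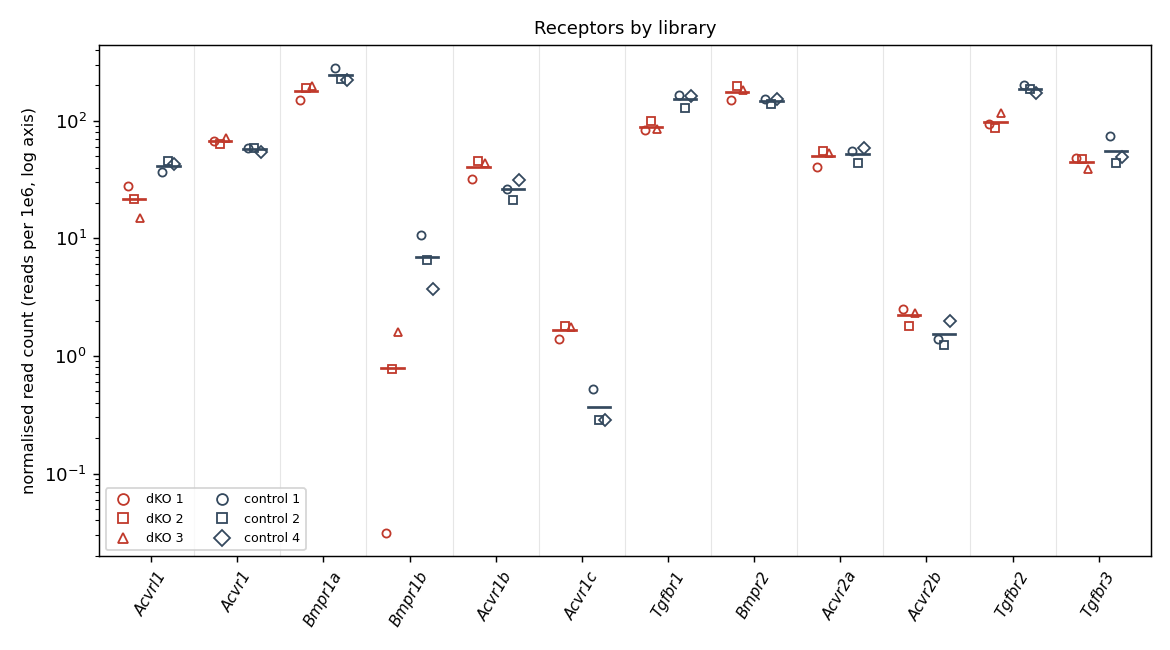
Normalised read count per library (log axis) of receptor genes, with 3 dKO libraries (red, left) and 3 control libraries (dark blue, right) and the group mean as a bar. The dKO libraries of Tgfbr2 (86.2 to 116) and Acvrl1 (15.0 to 27.7) lie below all control libraries (173 to 201 and 36.6 to 45.3), and those of Bmpr2 and Acvr2a overlap them.

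Inside the cell, Smad7 rose and the receptor-activated Smads and Smad4 did not pass, except for Smad9. Smad7, the inhibitory Smad that TGF-beta itself induces, had 24.7, 23.2 and 26.6 in dKO libraries against 15.9, 15.0 and 11.3 in control libraries. The dKO libraries were tight and all above the controls (log2 change 0.79, SE 0.18, limma adjusted p = 0.0123), and the gene did not pass without dKO 3 (0.74, limma adjusted p = 0.0592). Smad6, the inhibitory Smad that acts mainly on BMP signalling, had 14.8, 9.88 and 8.60 in dKO libraries against 9.73, 9.29 and 8.98 in control libraries (log2 change 0.19, limma adjusted p = 0.605). Smad9, a BMP-activated Smad, had 2.83, 1.89 and 2.75 in dKO libraries against 10.96, 6.29 and 3.84 in control libraries (log2 change -1.12, SE 0.35, limma adjusted p = 0.0428). Control 1 was 2.16 times the mean of the other controls, and Smad9 did not pass without control 1 (limma adjusted p = 0.134), nor without control 2 or any 1 of the dKO libraries (limma adjusted p of 0.0658 to 0.131).

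The other BMP-activated Smads did not pass. Smad5 had 102, 126 and 114 in dKO libraries against 144, 118 and 140 in control libraries (log2 change -0.23, limma adjusted p = 0.249), and Smad1 had a log2 change of -0.26 (limma adjusted p = 0.268). Smad4, the partner of all receptor-activated Smads, had 56.2, 59.3 and 53.5 in dKO libraries against 81.9, 66.7 and 64.5 in control libraries, without overlap (log2 change -0.32, limma adjusted p = 0.114). Smad2 and Smad3, which carry TGF-beta and activin signals, had log2 changes of -0.02 and -0.05.

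Of the 4 Id genes, which encode inhibitors of basic helix-loop-helix factors, Id4 fell. It had 2.83, 4.85 and 4.36 in dKO libraries against 12.6, 7.31 and 6.57 in control libraries (log2 change -0.94, SE 0.30, limma adjusted p = 0.0468). Control 1 was again the highest, at 1.81 times the mean of the other controls, and the gene did not pass without control 1 (limma adjusted p = 0.151), nor without control 2 or any 1 of the dKO libraries (limma adjusted p of 0.0681 to 0.12). Id1, a well-known direct BMP target, did not pass and was uneven among the dKO libraries. It had 20.9, 6.84 and 8.79 in dKO libraries against 14.9, 19.6 and 15.1 in control libraries (log2 change -0.55, limma adjusted p = 0.284). Only dKO 1 was above every control, and without dKO 1 the gene fell (log2 change -0.99, limma adjusted p = 0.0178). Id2 had 57.6, 38.9 and 40.0 in dKO libraries against 48.3, 63.9 and 47.0 in control libraries. Id3 had 32.0, 16.3 and 18.4 in dKO libraries against 27.1, 21.3 and 26.5 in control libraries. Neither passed (log2 changes -0.23 and -0.21).

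The library dKO 1 differed from the other dKO libraries in both directions in some BMP pathway genes, a grouping made after their values were seen. Relative to the mean of dKO 2 and dKO 3 it had 4.38 times the level of Bmp2, 2.67 times that of Id1, 1.84 times that of Id3 and 1.60 times that of Smad6. The low genes Bmp3 (1.92) and Gdf2 (1.54) and also Ltbp3 (1.60), Gdf10 (1.56) and Acvrl1 (1.52) were at least 1.5 times as high there. Other members were lower in dKO 1 than that mean, among them Id4 (0.614 of it), Bmp4 (0.733) and Bmpr1b (0.0263, with 0, 10 and 32 reads in dKO 1, 2 and 3). The ratio of Chrdl1 (0.391) rests on 0, 0 and 2 reads in dKO 1, 2 and 3, and that of Gdf2 on 3, 3 and 0 reads. These ratios of Chrdl1 and Gdf2 cannot tell the dKO libraries apart. The total of 18323035 reads in dKO 1 lay between those of the other dKO libraries. Its normalised values summed to 1139483, above dKO 2 (973064), dKO 3 (1005704) and the controls (925316 to 988546). The part of this scaling in the ratios was not tested. Control 1, in turn, was at least 1.5 times the mean of the other controls for Gdf10, Bmp10, Ltbp2, Smad9, Bmpr1b, Acvr1c, Id4, Bmper and Tgfbr3. Of these, Bmp10 rested on 19, 2 and 0 reads and Acvr1c on 8, 4 and 4 reads in controls 1, 2 and 4. Other members were lower in control 1 than the mean of the other controls. Among them were Bmp7 (0.556 of it), Gdf6 (0.620), Fstl4 (0.639), Tgfb1 (0.652) and Bmp5 (0.662). Leaving out control 1 and dKO 1 together kept 17 of the 21 calls (Fstl4, Acvr1c, Id4 and Smad9 were lost) and added 5, namely Id1 (log2 change -1.06, limma adjusted p = 0.00928), Ltbp3, Ltbp4, Bmp10 and Bmpr2.

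**Figure D5:**
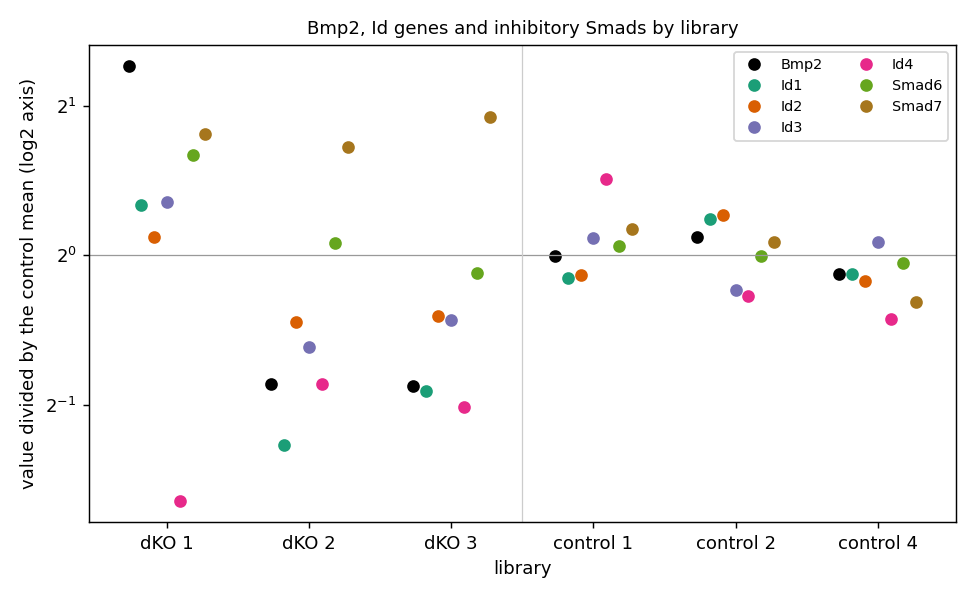
Level of Bmp2, Id and inhibitory Smad genes per library. The y axis is the value divided by the control mean (log2 axis), with dKO libraries on the left and control libraries on the right, and each point is 1 gene in 1 library. Bmp2, Id1, Id2 and Id3 lie above the control mean in dKO 1 and below it in dKO 2 and dKO 3, and Smad7 lies above it in all dKO libraries.

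Promoter sequence was examined for the members with a single entry in the RefSeq promoter table (GRCm38.p6), which gave 32 genes, 11 of them changed. The 250 bases before the annotated start were searched on both strands for 4 motifs. TGACAG, the core recognised by Meis factors, occurred in 1 of the 32 genes (Smad6), against 15.9% of all 32851 promoters in the table. GTCTAG, which holds the Smad-binding core, occurred in 2 of the 32 genes (Fstl1 and Fstl3), against 7.11% of all promoters. GGCGCC, a GC-rich element bound by BMP-activated Smads, occurred in 6 of the 32 genes, against 9.59% of all promoters. GGAGCC, a variant of that element, occurred in 18 of the 32 genes, against 26.0% of all promoters. GGCGCC was found in Bmpr1a, Bmpr2, Chrd, Id2, Id4 and Smad9. Matches are descriptions of these letters and not of binding. The shares were not adjusted for base composition, which ran from 42.8% G or C (Bmp5) to 85.6% (Acvr1) among the 32 genes. For Id4, Ltbp3 and Tgfbr2 the first bases after the start were not found in a GENCODE M21 transcript of the gene. The following 4 are shown because they hold a ligand that fell, a ligand that rose, an antagonist that fell and the 1 of the 32 genes with TGACAG. Each is the strand of the gene read 5′ to 3′ and ends at the base before the start, and capitals mark the matches on either strand, none of which share bases here. Bmp4 (chr14:46390670-46390919, minus strand, 63.2% G or C) has 1 GGAGCC, 32 bases before the start, on the opposite strand. Bmp5 (chr9:75775115-75775364, plus strand, 42.8% G or C) has none of the motifs. Chrd (chr16:20732877-20733126, plus strand, 78.0% G or C) has GGCGCC 203 and GGAGCC 127 bases before the start. Smad6 (chr9:64022060-64022309, minus strand, 66.8% G or C) has TGACAG, on the opposite strand, 183 bases before the start, and GGAGCC 102 and 18 bases before it.
Bmp4: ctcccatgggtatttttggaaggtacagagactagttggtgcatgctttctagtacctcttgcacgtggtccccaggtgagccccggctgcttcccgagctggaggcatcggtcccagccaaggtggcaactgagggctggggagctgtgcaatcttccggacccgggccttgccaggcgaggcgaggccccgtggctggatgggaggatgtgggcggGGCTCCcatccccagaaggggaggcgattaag
Bmp5: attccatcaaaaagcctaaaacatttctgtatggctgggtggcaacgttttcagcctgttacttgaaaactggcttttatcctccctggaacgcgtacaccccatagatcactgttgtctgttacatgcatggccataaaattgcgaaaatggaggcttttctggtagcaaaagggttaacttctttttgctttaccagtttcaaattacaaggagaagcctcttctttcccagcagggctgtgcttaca
Chrd: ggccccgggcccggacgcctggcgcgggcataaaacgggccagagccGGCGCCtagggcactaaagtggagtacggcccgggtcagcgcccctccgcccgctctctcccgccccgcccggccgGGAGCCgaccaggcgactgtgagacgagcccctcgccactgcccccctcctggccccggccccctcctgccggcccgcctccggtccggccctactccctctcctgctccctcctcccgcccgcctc
Smad6: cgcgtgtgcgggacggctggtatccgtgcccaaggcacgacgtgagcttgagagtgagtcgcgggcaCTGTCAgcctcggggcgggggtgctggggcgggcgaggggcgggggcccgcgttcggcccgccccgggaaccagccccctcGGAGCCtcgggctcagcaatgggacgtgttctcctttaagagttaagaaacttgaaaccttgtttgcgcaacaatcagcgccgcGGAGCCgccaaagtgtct

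Other genes of the pathway, were counted in lists made with earlier results of these data known. Of 72 such genes 20 fell and 6 rose, with a median log2 change of -0.11, beside 12.2% lower and 9.81% higher of all genes. Differences between the lists were not tested. Extracellular regulators fell for 12 of 20 and rose for 0 (median -0.90). Tll1, a tolloid-like protease related to Bmp1, had 1.27, 0.703 and 0.414 in dKO libraries against 16.9, 13.2 and 16.9 in control libraries (log2 change -3.23). Nbl1, a DAN-family BMP antagonist, had 11.8, 10.9 and 10.3 in dKO libraries against 94.1, 47.6 and 49.0 in control libraries (log2 change -2.36). Twsg1, twisted gastrulation, which binds BMPs together with chordin, had 141, 191 and 170 in dKO libraries against 544, 402 and 405 in control libraries (log2 change -1.42). Each of these 3 passed (limma), and the groups did not overlap. After adjustment for the cardiomyocyte score Tll1 passed (limma adjusted p = 0.0378), and Nbl1 and Twsg1 did not (limma adjusted p = 0.263 and 0.326). Among intracellular regulators 3 of 21 fell (Dab2, Ski and Xiap) and 0 rose, with a median of 0.06. Xiap did not pass without a variance trend (limma adjusted p = 0.0675), without dKO 1 (0.057), without dKO 3 (0.0725) or without control 1 and dKO 1 together (0.0591). After adjustment for the cardiomyocyte score Dab2 passed (limma adjusted p = 0.0400), and Ski and Xiap did not (0.431 and 0.823). Ski and Xiap also did not pass with the replicate number as a block (limma adjusted p = 0.147 and 0.246). Of 7 co-receptors, Hfe2, the BMP co-receptor hemojuvelin, which muscle and heart express, rose, at 5.44, 5.51 and 8.60 in dKO libraries against 0.216, 2.52 and 2.19 in control libraries (log2 change 1.63, limma adjusted p = 0.018). It did not pass with edgeR (edgeR adjusted p = 0.0716) or without dKO 3 (limma adjusted p = 0.0762). After adjustment for the cardiomyocyte score its log2 change was -0.36 (limma adjusted p = 0.893). Dand5, the 1 gene measured from the list of other ligands, did not pass (log2 change 0.21, limma adjusted p = 0.704).

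Listed target genes of the 2 branches were counted separately, and a difference between the branches was not tested. Of 8 BMP target genes 4 rose and 0 fell (median 0.54), beside 9.81% higher and 12.2% lower of all genes. The list leaves out the 4 Id genes described above, of which 0 rose and 1 fell. Those that rose were the transcription factor genes Tbx20, Hey1, Prdm1 and Gata4, and Tbx20 had 563, 667 and 658 in dKO libraries against 193, 299 and 255 in control libraries (log2 change 1.35). Of 15 TGF-beta target genes 5 fell and 1 rose (median 0.03). Among them Lox, a collagen crosslinking enzyme, and Col1a1 fell (log2 changes -2.19 and -1.73), while Acta2, smooth muscle actin, rose, with 1051, 1015 and 1286 in dKO libraries against 255, 515 and 522 in control libraries (log2 change 1.44). Ctgf, a common reporter of TGF-beta activity, did not pass (log2 change 0.50). Collagen genes and Lox are also fibroblast genes and Acta2 a mural gene, lists that moved the same way here. After adjustment for the cardiomyocyte score the log2 change of Acta2 was 0.02 and that of Tbx20 0.71, and neither passed (limma adjusted p = 0.992 and 0.384). Hey1, Prdm1 and Gata4 did not pass after it either (limma adjusted p = 0.358, 0.121 and 0.826). Of the 5 TGF-beta target genes that fell, Lox passed after this adjustment (log2 change -1.54, limma adjusted p = 0.0124). Col1a1 did not (log2 change -1.77, limma adjusted p = 0.117), nor did the remaining TGF-beta target genes that had fallen.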

How the data were processed

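Polyadenylated RNA from dissected E16.5 epicardium and subepicardium was sequenced in 3 dKO and 3 control pools of 2 hearts, from at least 3 litters, per the labels' protocols. Per the submitters' processing notes, cutadapt and RSEM 1.3.1 were used with the GRCm38 build; the sources used here give neither the annotation release nor the normalization. The deposited values are a normalised signal, on the scale of reads per 1e6 with 0.5 reads added, and each of the 87294 values gave back whole reads within 0.01 reads. These recovered reads were used for edgeR 4.0.16 and DESeq2 1.42.0 as alternatives.

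All 14549 genes met a filter of 1 in at least 3 libraries and entered 1 linear model in limma 3.58.1 (R 4.3.3) on log2 of the value plus 1, with a variance trend and no covariate. Chrdl1, Gdf2 and Acvr1c met the filter only through the group where they were high. P-values are two-sided, adjusted by the Benjamini-Hochberg method over all genes, with a threshold of 0.05. SD is over the 3 libraries of a group and SE is that of the fit. Replicates are pools, so p-values measure the spread between pools. The limma, edgeR and DESeq2 steps were each tested on simulated data.

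The members, gene lists and rule for named genes were chosen with earlier results of these data known. Every member is counted by its role. By the rule, members past the threshold with a larger group mean of at least 5 (at most 6 a role) are given by library and lower ones as low. Of each list of other pathway genes, the 3 called genes with the smallest p are named (the 1 with the highest mean where none was called). Only some of these are given by library. Gata4 and Ctgf, and library values of members that did not pass, were added after their values were seen. Gene positions, exonic lengths and overlaps are from GENCODE M21 (GRCm38), where 14530 of the 14549 identifiers were found. Promoter sequences are from RefSeq. Alternatives were the pseudocount, the filter, the variance trend, quantile normalization, the read-count tools, a cardiomyocyte covariate, a replicate block and fits without 1 library or without control 1 and dKO 1.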

Additional observations from a re-analysis of the deposited data

How the results depend on the processing

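Of the 21 changed genes, Chrdl1 and Bmp6 passed in every fit run, and Chrd, Inhbb, Bmp3, Bmp4, Bmp5, Bmp7, Gdf2, Tgfb3, Acvrl1, Bmpr1b, Tgfbr1 and Tgfbr2 also passed in every fit that left out 1 library. Chrdl1 and Gdf2 met the filter only through the control libraries, so their passes are not independent of it. Another pseudocount or no filter moved no call, and a filter at 5 tested 15 of the 21, all of which passed. Genes near the threshold (Acvr1b, Id4, Smad9 and Fstl4) were lost without a variance trend, with quantile normalization or with edgeR. Genes with few reads (Gdf2, Chrdl1, Bmpr1b, Acvr1c) are limited by depth, where 1 read is worth 0.0487 to 0.0740.

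After adjustment for the cardiomyocyte score, 1 member rose and 2 fell, against 59 and 220 of all genes and 0 and 3 of the other pathway genes. Log2 changes then turned sign for Bmper (0.44), Fstl1 (0.061), Ltbp2 (1.53), Gdf10 (4.52), Tgfbr3 (0.61), Bmpr1a (0.12), Acvr2a (0.23), Smad4 (0.13), Id4 (0.34), Smad2 (0.51), Smad3 (0.32), Smad5 (0.071), Smad9 (0.25), Dand5 (-1.07), Hfe2 (-0.36) and Meis1 (0.93), and Meis2 (-0.64) did not pass. The score and the genotype cannot be told apart, and the spread of the score within the groups came mostly from control 1.

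Replicate numbers 1 and 2 occur in both groups, and the labels do not say that they pair the pools; deviations of same-numbered libraries from their group means correlated at -0.18 and -0.20. With the number as a block, which leaves 1 residual degree of freedom, 2 members rose and 9 fell, against 580 and 780 of all genes, and 10 other pathway genes fell. The numbers of dKO 3 and control 4 occur in only 1 group each, so the block absorbs both libraries. Log2 changes of this fit thus rest on libraries 1 and 2 of each group. In it Bmp2 (0.16), Gdf6 (0.090) and Tgfb1 (0.076) turned sign.

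Signs of small changes also turned with quantile normalization (Fstl3 0.018, Smad2 0.0072), edgeR (Fstl3 0.0036, Bmp2 0.22), DESeq2 (Fstl3 0.0012, Bmp2 0.22) and without control 1 and dKO 1 together (Ltbp2 0.36, Gdf10 0.30, Tgfb2 0.023, Acvr2a 0.11, Smad2 0.19, Smad3 0.041, Dand5 -0.26, Meis1 0.13). Leaving out 1 library gave 2 to 5 members that rose (3 without control 2, 2 without dKO 3) and 898 to 1262 of all genes that rose (910 without dKO 2, 898 without dKO 3). It gave log2 changes of -0.19 to 0.21 for Fstl3, -0.43 to 0.26 for Ltbp2, -0.75 to 0.22 for Bmp2, -1.43 to 0.53 for Gdf10, -0.27 to 0.11 for Gdf6, -0.25 to 0.11 for Tgfb1, -0.23 to 0.077 for Tgfb2, -0.19 to 0.069 for Acvr2a, -0.015 to 0.35 for Smad6, -0.11 to 0.091 for Smad2, -0.11 to 0.039 for Smad3, -0.32 to 0.045 for Meis1 and -0.040 to 0.37 for Dand5.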
